A study of Mus musculus with 4 samples.

Results

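The primary, or azurophil, granules of promyelocytes are represented here by 8 genes, taken by name from a table of read counts for 13614 genes: Mpo, Elane, Prtn3, Ctsg, Prss57, Ms4a3, Srgn and Calr3. All 8 were in the table, in which every gene exceeds 0.5 counts per 1000000 (CPM) in at least 2 libraries, and all 8 passed the test's own filter on low counts. They were measured by RNA-seq in mouse fetal liver cells, collected between embryonic days 14.5 and 16.5, that had been transduced with a retrovirus carrying the fusion oncogene MLL-AF9 and sorted by GFP. The study calls these cells leukemia-initiating cells, and both genotypes carry MLL-AF9 and GFP. One group is Prl2+/+, called wild type below, and the other is Prl2-/-, called the knockout, with 2 libraries each. The phosphatase PRL2 is the product of Ptp4a2, for which Prl2 is an alias. The labels do not give the part of Ptp4a2 that is deleted, the mouse strain, or whether the libraries of a genotype came from separate embryos or cultures. The p-values therefore measure the spread between these libraries, which for the knockout may be technical; the wild type libraries differ in sex-linked transcripts, given below, and so do not hold the same cells.

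Primary granules are the first granules that a developing neutrophil makes. Their contents are transcribed in a short window at the promyelocyte stage, under transcription factors such as C/EBP alpha, PU.1, MYB and RUNX1, and transcription ends as the cell matures. Myeloperoxidase, encoded by Mpo, is a heme enzyme that turns hydrogen peroxide and chloride into hypochlorous acid. Elane, Prtn3, Ctsg and Prss57 encode the neutrophil serine proteases elastase, proteinase 3, cathepsin G and NSP4. Srgn encodes serglycin, the proteoglycan core that holds basic proteases in the granule. Ms4a3 encodes a membrane protein of granulocyte and monocyte progenitors. Calr3 encodes a testis-specific calreticulin and is not a granule protein by that role.

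Library totals lay between 14625725 and 15422309 counts. Counts of Ptp4a2 were 4884 and 5105 in wild type and 89 and 104 in knockout libraries, in keeping with the labels. Xist had 11147 counts in wild type replicate 1 and 9, 3 and 12 in wild type replicate 2 and the knockout replicates 1 and 2, while Ddx3y had 12, 1271, 1320 and 1173. Wild type replicate 1 thus differs from the other libraries in its sex-linked transcripts. Of the other cell types a fetal liver sort could hold, 0 of 6 hepatocyte markers were in the table. The 5 of 9 erythroid markers present summed to 4.84 to 27.3 CPM (scaled by edgeR's TMM factors). Both knockout libraries lay below both wild type libraries for all 5, against 21.9% of all genes, and 0 were called in the quasi-likelihood fit. Hbb-bt, Hba-a1 and Klf1 had 36 counts or fewer in every library. Hbb-bs was called by DESeq2 and by edgeR's likelihood ratio test. The 2 of 12 lymphoid markers summed to 64.8 to 88.9 CPM. The 3 of 6 megakaryocyte markers summed to 17.1 to 58.1 CPM.

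By edgeR's quasi-likelihood test over all 13614 genes, with an adjusted p of 0.05 or less as a call, 0 of the 8 genes were called higher and 0 lower in the knockout. Of all genes tested 0, or 0%, were called higher and 1, Ptp4a2, or 0.00735%, was called lower. At an unadjusted p under 0.05 the count was also 0 of 8, against 5.66% of all genes higher and 4.23% lower. DESeq2, which called 0.338% of all genes higher and 0.338% lower, edgeR's likelihood ratio test and limma-voom also called 0 of the 8. All 8 fitted fold changes were below 0, as were 50.9% of all genes, and their median was -0.49 on the log2 scale against -0.0059 over all genes. Both knockout libraries lay below both wild type libraries for 2 of the 8 genes, Mpo and Prss57, which is 25.0% of them, against 21.9% of all genes, and above both for 0 of the 8, against 22.2%. The direction of 5 genes rests on 1 library. Without knockout replicate 2 the log2 fold change of Calr3 was 0.0022. Without wild type replicate 2 the log2 fold changes were 0.13 for Elane, 0.37 for Ctsg, 0.30 for Ms4a3 and 0.070 for Srgn, and -0.45 for Mpo. The median over the 8 genes was -0.07 without it, -1.02 without wild type replicate 1, -0.77 without knockout replicate 1 and -0.27 without knockout replicate 2. The intervals of all 8 differences include 0, and a fold change that misses the threshold does not show that the genotypes are alike. In bulk RNA, fewer cells of a type and less RNA per cell cannot be told apart.

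**Figure D1:**
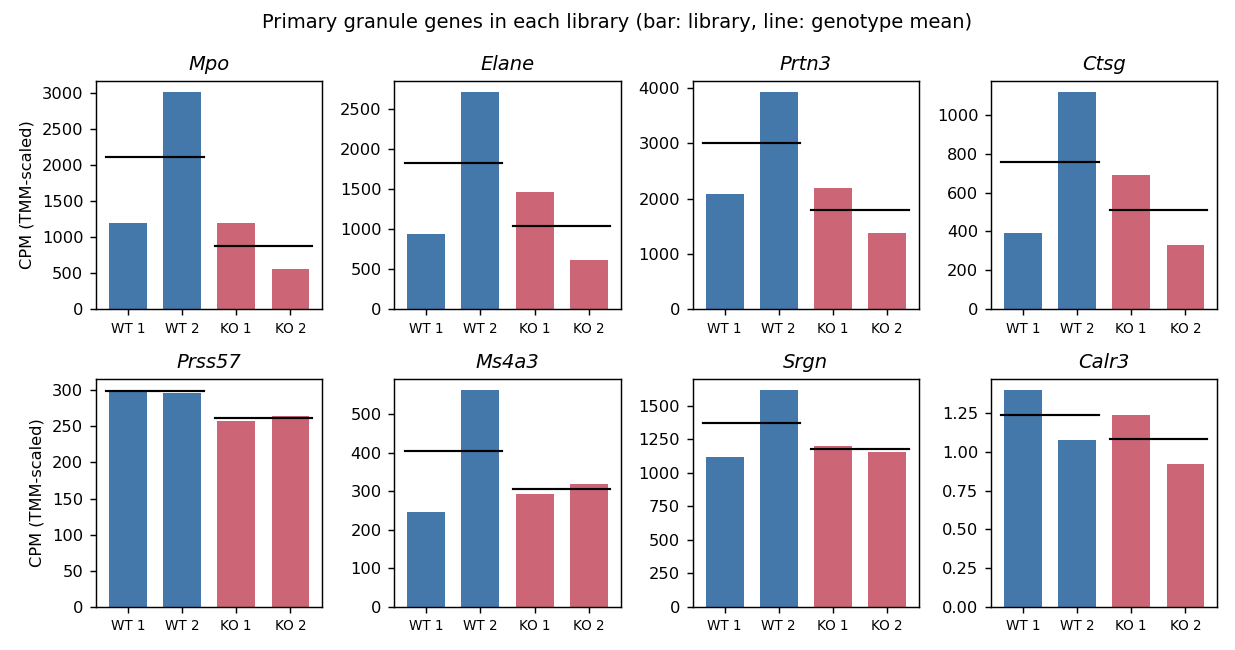
Level of each primary granule gene in CPM (y axis, from 0, a separate scale per gene) in the 2 wild type (WT, blue) and 2 knockout (KO, red) libraries. Bars are single libraries and black lines are genotype means. Mpo, Elane, Prtn3 and Ctsg are highest in WT 2 and lowest in KO 2, while Prss57 lies between 257 and 301 CPM in all 4.

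Mpo was at 1193 and 3009 CPM in the wild type replicates 1 and 2, and at 1189 and 561 CPM in the knockout replicates 1 and 2. The groups do not overlap, but wild type replicate 1 and knockout replicate 1 are almost level and the other library of each genotype lies far from them. The means were 2101 ± 1284 CPM and 875 ± 444 CPM (SD, n = 2 each). The log2 fold change was -1.26 (SE 0.661, 95% interval -3.22 to 0.69, quasi-likelihood adjusted p = 0.594). The authors' deposited table gives Mpo a p of 0.0513 and an adjusted p of 0.751. The gene (ENSMUSG00000009350.13) lies on chromosome 11 from 87793581 to 87804413 in mm10, on the plus strand. GENCODE M21 places an antisense gene, Gm11505, over 5361 bp of it. Whether the counting used strand is not given in the sources used here, so reads of that antisense gene cannot be told apart from those of Mpo. Gm11505 is not among the 13614 genes of the table, while Mpo has 8494 to 44682 counts per library.

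Elane was at 943 and 2717 CPM in the wild type and at 1467 and 612 CPM in the knockout. The groups overlap, since knockout replicate 1 lies above wild type replicate 1. The means were 1830 ± 1254 CPM and 1039 ± 604 CPM (SD, n = 2 each), with a log2 fold change of -0.82 (SE 0.758, quasi-likelihood adjusted p = 0.754). Elane (ENSMUSG00000020125.7) lies on chromosome 10 from 79886247 to 79888215, on the plus strand.

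Prtn3, the neighbour of Elane, was at 2089 and 3932 CPM in the wild type and at 2196 and 1379 CPM in the knockout. Its library order is that of Elane, from wild type replicate 2 through knockout replicate 1 and wild type replicate 1 to knockout replicate 2. The means were 3010 ± 1303 CPM and 1788 ± 578 CPM (SD, n = 2 each), with a log2 fold change of -0.75 (SE 0.406, quasi-likelihood adjusted p = 0.590). Prtn3 (ENSMUSG00000057729.12) runs from 79874476 to 79883174 on the plus strand of chromosome 10.

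Ctsg, on chromosome 14 (56099881 to 56102574, minus strand, ENSMUSG00000040314.2), was at 393 and 1118 CPM in the wild type and at 692 and 330 CPM in the knockout. It follows the same library order as Elane and Prtn3, and the groups overlap. The means were 756 ± 513 CPM and 511 ± 255 CPM (SD, n = 2 each), with a log2 fold change of -0.56 (SE 0.706, quasi-likelihood adjusted p = 0.824). Mpo, Elane, Prtn3 and Ctsg thus make up the 4 of 8 genes that were highest in wild type replicate 2 and lowest in knockout replicate 2, a pattern picked after the values were seen. It holds for 8.33% of all genes.

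Together these 4 genes held 0.472% and 1.07% of the wild type counts and 0.549% and 0.286% of the knockout counts. The exact 95% binomial intervals of these shares were 0.469 to 0.476, 1.07 to 1.08, 0.546 to 0.553 and 0.283 to 0.289%, and they cover counting error only. At this depth counting error is small beside the differences between libraries of one genotype.

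The promoters of Elane, Prtn3, Ctsg and Mpo, which shared the library pattern above, are printed because a short purine-rich motif occurs in each of them. Windows from 250 bases before to 50 bases after a RefSeq transcript start were found for 7 of the 8 genes, with 9 windows in all, in GRCm38.p6, the assembly of mm10. Prss57, which lacks the library pattern, had no window, so no motif was searched there. AGGAAGT, a sequence that PU.1 and other ETS factors can bind, was searched on both strands and occurs in the windows of Elane, Prtn3, Ctsg and Mpo. It does not occur in the windows of Ms4a3, Srgn or Calr3, but shorter parts of it do. With both strands read, GGAAGT occurs in windows of Ms4a3 and Srgn, and GGAAG in those of Calr3. Which windows match thus depends on the letters chosen, and the shares of these shorter parts over all windows were not computed. Among the 12202 windows of tested genes 9.53% hold AGGAAGT. The motif was chosen after the sequences were read, and a match is a description of these letters, not evidence of binding. The windows follow, 5′ to 3′ in the direction of transcription, with AGGAAGT in capitals. They are chr10:79886062-79886361 for Elane, chr10:79879417-79879716 for Prtn3, and chr11:87793534-87793833 for Mpo, all on the plus strand, and chr14:56102525-56102824 on the minus strand for Ctsg.
Elane: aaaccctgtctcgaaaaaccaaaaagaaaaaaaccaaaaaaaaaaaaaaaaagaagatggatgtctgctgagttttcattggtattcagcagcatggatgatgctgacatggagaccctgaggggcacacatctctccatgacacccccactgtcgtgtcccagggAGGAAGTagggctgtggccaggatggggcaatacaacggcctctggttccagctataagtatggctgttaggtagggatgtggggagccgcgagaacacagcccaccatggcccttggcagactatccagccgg
Prtn3: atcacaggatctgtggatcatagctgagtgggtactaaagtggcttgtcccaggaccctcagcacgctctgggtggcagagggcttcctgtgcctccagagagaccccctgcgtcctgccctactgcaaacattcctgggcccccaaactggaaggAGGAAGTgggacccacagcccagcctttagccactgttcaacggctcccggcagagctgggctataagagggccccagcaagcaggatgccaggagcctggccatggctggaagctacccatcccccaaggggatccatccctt
Ctsg: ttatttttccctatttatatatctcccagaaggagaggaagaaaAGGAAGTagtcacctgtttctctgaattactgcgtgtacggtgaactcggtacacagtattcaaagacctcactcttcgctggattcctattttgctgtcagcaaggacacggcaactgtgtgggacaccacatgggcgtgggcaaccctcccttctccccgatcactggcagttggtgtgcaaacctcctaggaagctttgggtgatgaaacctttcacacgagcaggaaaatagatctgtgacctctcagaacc
Mpo: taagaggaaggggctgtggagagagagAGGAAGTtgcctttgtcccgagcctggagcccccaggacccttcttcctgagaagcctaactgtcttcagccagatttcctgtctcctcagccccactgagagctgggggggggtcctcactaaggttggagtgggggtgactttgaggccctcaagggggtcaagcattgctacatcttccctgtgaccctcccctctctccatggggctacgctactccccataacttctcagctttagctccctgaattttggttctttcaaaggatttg

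The first base of AGGAAGT lies at -84 from the RefSeq start in Elane, -94 in Prtn3, -206 in Ctsg and -223 in Mpo. AACGG, a core that MYB can bind, was found on either strand in the windows of Elane and Prtn3, at -50 and -55, and in 23.4% of the windows of tested genes. AACTG, another MYB core, was found in those of Mpo, Prtn3, Ctsg and Srgn, against 38.2%. The C/EBP motif TTGCNNAA was found in the window of Ms4a3 and in 0 of the other 8, against 8.45%, and TGTGGT, a RUNX core, in 1 window each of Ctsg, Srgn and Calr3, against 13.0%. AGGAAGT overlaps none of the other motifs in the 4 printed windows.

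Prss57, the fourth serine protease gene, was at 301 and 296 CPM in the wild type and at 257 and 265 CPM in the knockout. The groups do not overlap, and the libraries of a genotype are closer to each other than for any of the other 7 genes. The means were 299 ± 3.37 CPM and 261 ± 5.32 CPM (SD, n = 2 each). The log2 fold change was -0.19 (SE 0.0976, 95% interval -0.43 to 0.05, quasi-likelihood adjusted p = 0.556). Prss57 (ENSMUSG00000020323.14) lies on the minus strand of chromosome 10 from 79781474 to 79790961, and Fstl3 on the other strand overlaps it by 1157 bp. Fstl3 has 38 to 55 counts per library, against 3934 to 4500 for Prss57.

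Ms4a3 was at 247 and 563 CPM in the wild type and at 292 and 319 CPM in the knockout. Wild type replicate 2 alone is high, and both knockout libraries lie between the wild type ones. Its log2 fold change was -0.41 (SE 0.434, quasi-likelihood adjusted p = 0.787). The gene (ENSMUSG00000024681.11) lies on chromosome 19 from 11629496 to 11640851, on the minus strand.

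Srgn was at 1121 and 1623 CPM in the wild type and at 1202 and 1160 CPM in the knockout. It too has wild type replicate 2 alone above the other libraries, which are within 81.0 CPM of each other. Its log2 fold change was -0.22 (SE 0.193, quasi-likelihood adjusted p = 0.724). Srgn (ENSMUSG00000020077.14) lies on chromosome 10 from 62493833 to 62527451, on the minus strand. Serglycin is made by many blood cell types, mast cells included, so its level is not specific to primary granules.

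Calr3 was near the limit of detection, with 21 and 16 counts in wild type and 19 and 14 in knockout replicates 1 and 2. The groups overlap, and the log2 fold change was -0.19 with a 95% interval of -1.32 to 0.93 (quasi-likelihood adjusted p = 0.909). The gene (ENSMUSG00000019732.14) lies on chromosome 8 from 72424176 to 72443870, on the minus strand, and overlaps the processed pseudogene Gm3835 by 403 bp on the same strand. The other 7 genes have at least 3692 counts in every library.

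**Figure D2:**
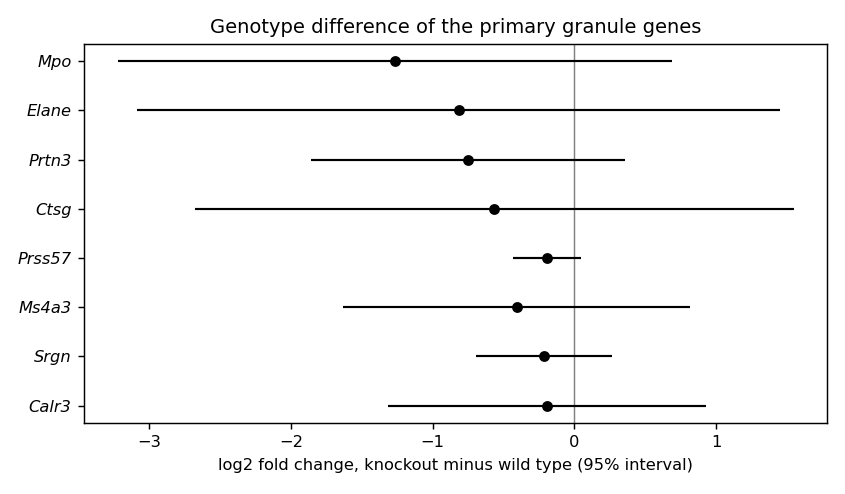
Log2 fold change of the 8 genes, knockout minus wild type (x axis, log2 scale), from edgeR's quasi-likelihood fit on 2 against 2 libraries. Points are estimates and lines are 95% intervals. All points lie below 0 and all intervals include 0, with the narrowest for Prss57 (-0.43 to 0.05).

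Per kilobase of deposited gene length (RPKM), the order of the levels was led by Prtn3 and Elane, which changed places between libraries. Elane was at 958 and 2761 RPKM in the wild type and 1491 and 622 RPKM in the knockout, and Prtn3 at 1206 and 2270 against 1268 and 796 RPKM. The RPKM ratio of Elane to Prtn3 was 0.794 and 1.22 in the wild type and 1.18 and 0.781 in the knockout. It was above 1 in the library of each genotype with more of both transcripts. Ctsg stayed nearer to Elane, with ratios of 0.397 and 0.392 in the wild type and 0.449 and 0.514 in the knockout. The RPKM ratio of Mpo to Elane was 0.364 and 0.318 in the wild type and 0.233 and 0.263 in the knockout. Both knockout libraries thus lay above both wild type libraries for Ctsg to Elane, and below them for Mpo to Elane. For levels of single genes, 22.2% of all genes lay above in this way and 21.9% below. These ratios were not tested, and the share over other gene pairs was not computed. Srgn, at 510 to 739 RPKM, was the third in wild type replicate 1 and knockout replicate 2, which have less Elane, and Prss57, at 90.5 to 106 RPKM, was the seventh in all 4 libraries, ahead of Calr3.

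Several of the 8 genes differed widely between the libraries of one genotype. Wild type replicate 2 was above wild type replicate 1 by 2.88-fold for Elane, 2.85-fold for Ctsg, 2.52-fold for Mpo, 2.28-fold for Ms4a3, 1.88-fold for Prtn3 and 1.45-fold for Srgn. So 4 of the 8 genes were at least 2-fold higher there, against 2.89% of all genes, and 9.05% differed 2-fold in either direction. Wild type replicate 2 was the highest of the 4 libraries for 6 of the 8, against 24.2%. Knockout replicate 1 was above knockout replicate 2 by 2.40-fold for Elane, 2.12-fold for Mpo, 2.09-fold for Ctsg and 1.59-fold for Prtn3. At least 2-fold were 3 of the 8, against 2.83% of all genes, and 7.53% in either direction. Ms4a3 and Srgn did not share the second difference, with ratios of 0.914 and 1.04. For Prss57 the ratios were 0.984 and 0.972.

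Of the 6290 genes whose mean log2 CPM reached 5, 33 had a larger difference than Elane between the wild type libraries and 32 between the knockout libraries, in either direction. For Mpo the counts were 47 and 48, for Ctsg 36 and 49, and for Prtn3 139 and 133. The libraries of a genotype thus lay further apart for these 4 genes than for nearly all of the 6290. These 4 have a mean log2 CPM of 9.14 to 11.1, and no set matched to that level was compared. For Ms4a3 the counts were 71 and 2802 and for Srgn 455 and 4788, so both ranked higher between the wild type libraries than between the knockout libraries. For Prss57 they were 5760 and 5058, so most of the 6290 genes spread more than it did. Calr3 is not among the 6290, as its mean log2 CPM is below 5.

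**Figure D3:**
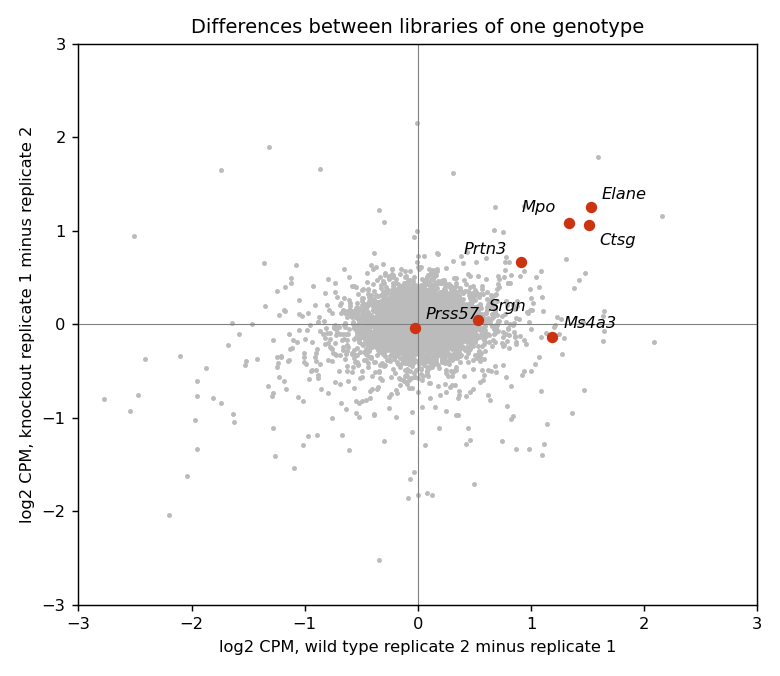
Difference in log2 CPM between the wild type libraries (x axis, replicate 2 minus replicate 1) and between the knockout libraries (y axis, replicate 1 minus replicate 2). Grey points are the 6290 genes whose mean log2 CPM reached 5, of which 6 lie outside the axes, and red points are primary granule genes other than Calr3. Elane, Ctsg, Mpo and Prtn3 lie away from 0 on both axes, Ms4a3 on one, and Prss57 near the centre.

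Elane, Prtn3 and Prss57 lie in one stretch of chromosome 10, and 14 genes of the table lie at least partly within 100 kb of Elane. Besides Elane and Prtn3, Plppr3 had log2 CPM differences of 0.57 between the wild type libraries (replicate 2 minus 1) and 0.38 between the knockout libraries (replicate 1 minus 2). Other neighbours differed as much between the wild type libraries in the opposite direction. The difference was -0.54 for Tmem259 and -0.51 for Arid3a, with -0.14 and -0.04 between the knockout libraries. It was -1.05 for Kiss1r, which has 11 to 25 counts per library, with -0.25 between the knockout libraries. Plppr3 encodes a neuronal phospholipid phosphatase-related protein. It was at 103.0 and 153 CPM in the wild type and 104 and 79.5 CPM in the knockout, in the library order of Prtn3. It overlaps the first 159 bp of the annotated Prtn3 gene on the opposite strand, so without a stated strand setting reads of the pair cannot be told apart where they overlap. The annotated gene starts at 79874476, upstream of the RefSeq start whose window, from 79879417 to 79879716, is printed above. Palm and Wdr18 have that library order too, with differences of at most 0.15. Gm19810, a processed pseudogene on the strand of Elane that starts just beyond its end, was at 67.9 and 62.4 CPM against 43.9 and 44.8 CPM, with knockout below wild type in both libraries. Its log2 fold change was -0.55 (SE 0.115, quasi-likelihood adjusted p = 0.474). Med16, a Mediator subunit gene, and Ptbp1, a splicing regulator gene, differed by at most 0.19 on the log2 CPM scale between libraries of one genotype.

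**Figure D4:**
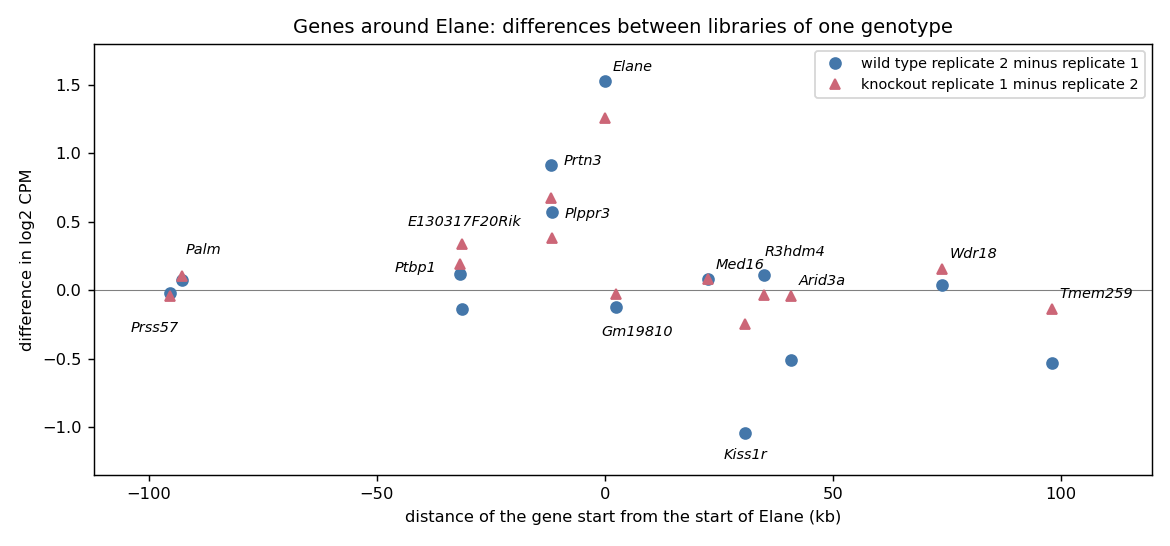
Genes at least partly within 100 kb of Elane, by the distance of their annotated gene start from that of Elane (x axis, kb), with the difference in log2 CPM between the libraries of one genotype (y axis). Circles are wild type replicate 2 minus replicate 1, and triangles are knockout replicate 1 minus replicate 2. Elane, Prtn3 and the overlapping Plppr3 are at 0.38 or more in both, while Prss57 is at -0.02 and -0.04.

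Other contents of primary granules, lysozyme and lysosomal enzymes among them, were set beside the 4 genes. Of 12 such genes 10 were in the table, 3 higher and 7 lower in knockout cells, with a median log2 fold change of -0.04. The quasi-likelihood test called 0, and 1 had an unadjusted p under 0.05. It was Lyz2, the myeloid lysozyme gene, at 476 and 803 CPM in the wild type and 239 and 323 CPM in the knockout. Both knockout libraries of Lyz2 lie below both wild type libraries, and the log2 fold change was -1.19 (SE 0.308, quasi-likelihood adjusted p = 0.474). DESeq2 called it, while edgeR's likelihood ratio test and limma-voom called 0 of the list. Lyz2 has a close copy, Lyz1, which is not analysed here, so reads between the copies are uncertain. The lysosomal enzymes Man2b1, Gusb and Ctsd had log2 fold changes of 0.07 (SE 0.236), -0.01 (SE 0.124) and -0.12 (SE 0.141). Man2b1 was lowest in wild type replicate 2, at 1348 CPM, and at 1463 to 1982 CPM in the other libraries. Highest in wild type replicate 2 were 4 of the 10, against 24.2% of all genes. Nkg7, chosen after its values were seen, was the 1 gene at least 2-fold higher there than in wild type replicate 1, against 2.89%. It was at 107 and 333 CPM in the wild type and 209 and 220 CPM in the knockout. None of the 10 was highest in wild type replicate 2 and lowest in knockout replicate 2, against 8.33% of all genes.

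Of 16 genes for the folding, activation, sorting and release of granule proteins, all were in the table, 6 with higher and 10 with lower values and a median log2 fold change of -0.02. By the quasi-likelihood test 0 were called, 2 had an unadjusted p under 0.05, and DESeq2, the likelihood ratio test and limma-voom called 0. Calr and Canx, the lectin chaperones on which myeloperoxidase folds, were at 1869 to 2081 CPM and 666 to 775 CPM. Pdia3, a disulfide isomerase, was at 791 to 893 CPM, and Hsp90b1, an endoplasmic reticulum chaperone, at 743 to 800.1 CPM. None of the 16 differed by 2-fold between the libraries of a genotype, against 9.05% of all genes for the wild type and 7.53% for the knockout. Ctsc, the dipeptidyl peptidase that activates the serine proteases, was at 73.1 and 86.3 CPM in the wild type and 72.0 and 58.2 CPM in the knockout. It is 1 of 3 genes of the list, with Canx and Hsp90b1, that were highest in wild type replicate 2 and lowest in knockout replicate 2. That held for 8.33% of all genes. Ctsc was chosen after its values were seen.

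Of 12 inhibitors of granule proteases and their relatives 8 were in the table, 3 higher and 5 lower, with a median log2 fold change of -0.34. The quasi-likelihood test called 0, with 1 higher and 2 lower at an unadjusted p under 0.05. Wfdc21 was the 1 gene called by DESeq2 and also by the likelihood ratio test, and limma-voom called 0. Serpinb1a, the serpin that inhibits elastase, proteinase 3 and cathepsin G inside the cell, was at 409 and 844 CPM in the wild type and 599 and 422 CPM in the knockout. It was highest in wild type replicate 2, as Elane was. Slpi, a secreted inhibitor of elastase, was highest in the other wild type library, at 3700.2 CPM against 2156 CPM in wild type replicate 2 and 2135 and 2380 CPM in the knockout. The stefins Stfa1 and Stfa2 inhibit cysteine proteases and belong to a family of near-identical copies, so their counts of 12011 to 18847 and 393 to 1315 per library are uncertain.

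Of 9 genes of heme synthesis, which supplies the cofactor of myeloperoxidase, 8 were in the table, 2 higher and 6 lower, with a median log2 fold change of -0.09. The quasi-likelihood test called 0, 1 had an unadjusted p under 0.05, and DESeq2, the likelihood ratio test and limma-voom called 0. Alas1, the rate-limiting enzyme outside the erythroid lineage, was at 570 and 576 CPM in the wild type and 617 and 508 CPM in the knockout. Fech, which inserts iron, had 967 and 962 counts in wild type and 1452 and 1380 in knockout libraries, with no overlap and a log2 fold change of 0.52 (SE 0.103, quasi-likelihood adjusted p = 0.474). Urod, which encodes uroporphyrinogen decarboxylase, was at 61.0 to 67.6 CPM.

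All 17 transcription factors of the promyelocyte stage were in the table, 5 with higher and 12 with lower values and a median log2 fold change of -0.18. The quasi-likelihood test called 0, with 0 at an unadjusted p under 0.05, and DESeq2, the likelihood ratio test and limma-voom called 0. Spi1, which encodes PU.1, was at 522 and 615 CPM in the wild type and 528 and 589 CPM in the knockout. Myb was at 710 and 578 CPM against 591 and 547 CPM, and Hoxa9, an MLL-AF9 target, at 416 and 276 CPM against 259 and 242 CPM. Cebpe, the factor of the later granulocyte stage, was at 356 and 369 CPM against 401 and 463 CPM, so it was highest in knockout replicate 2, where Elane was lowest. Cebpa, chosen after its values were seen, was at 76.1 and 122 CPM against 107 and 53.0 CPM. It has the library order of Elane, Prtn3 and Ctsg. Of the 17 factors 3, Cebpa, Meis1 and Runx1, were highest in wild type replicate 2 and lowest in knockout replicate 2. That held for 8.33% of all genes.

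The later granules are made after the promyelocyte stage. Of 17 secondary and tertiary granule genes 16 were in the table, 10 with higher and 6 with lower values and a median log2 fold change of 0.03. The quasi-likelihood test called 0, 2 had an unadjusted p under 0.05, and limma-voom called 0. Mmp25 was the 1 gene called by DESeq2, as by the likelihood ratio test. The list summed to 14968 and 20891 CPM in the wild type and 17288 and 17754 CPM in the knockout. S100a9 and S100a8, the subunits of calprotectin, were at 3680 and 5216 CPM and at 2374 and 3237 CPM in the wild type, and at 3834 and 3893 CPM and at 2292 and 2724 CPM in the knockout. Ngp, a secondary granule protein, was at 1741 and 2256 CPM against 2578 and 1995 CPM, and Hp, which encodes haptoglobin, at 1876 and 2429 CPM against 2376 and 1984 CPM. At least 2-fold higher in wild type replicate 2 than in replicate 1 were 2 of the 16, Cd177 and Mmp9, against 2.89% of all genes. Padi4 alone was at least 2-fold higher in knockout replicate 1 than in replicate 2, against 2.83% of all genes. In the other direction, 4 of the 16 were at least 2-fold higher in knockout replicate 2. Of all genes 7.53% differed 2-fold between the knockout libraries in either direction.

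Markers of other cells also differed between the libraries, and their part in the granule gene values was not tested. The 6 of 10 stem and early progenitor markers present summed to 1105 and 635 CPM in the wild type and 679 and 823 CPM in the knockout, so they were highest in wild type replicate 1 and lowest in replicate 2. Flt3, a receptor of early progenitors, was at 303 and 44.0 CPM against 68.2 and 118 CPM, and Cd34 at 414 and 171 CPM against 242 and 272 CPM. Both have less in the library of each genotype where Elane is higher. Kit was at 236 and 282 CPM against 259 and 315 CPM. It thus had more in the wild type library where Elane is higher, and less in that knockout library. Mecom, a stem cell transcription factor gene chosen after its values were seen, had 361 and 628 counts in wild type and 95 and 1 in knockout libraries, highest and lowest where Mpo was. Its log2 fold change was -3.40 (SE 1.57, quasi-likelihood adjusted p = 0.574). The 8 of 12 monocyte and macrophage markers summed to 2072 and 2318 CPM against 2529 and 2773 CPM, with C1qa, C1qb, C1qc and Mrc1 not among the genes listed. Most of each sum came from Ly6c2, at 1470 and 1669 CPM against 1573 and 1522 CPM (log2 fold change -0.02, SE 0.124). Cd68 had a log2 fold change of 0.11 (SE 0.178). Other members of the list went different ways. Vcam1, an adhesion molecule of macrophages, was at 25.7 and 110 CPM against 397 and 454 CPM (log2 fold change 2.65, SE 0.834, quasi-likelihood adjusted p = 0.501), and Adgre1, which encodes F4/80, at 285 and 251 CPM against 323 and 537 CPM. Ccr2 and Csf1r, the receptors of CCL2 and CSF1, had log2 fold changes of -0.96 (SE 0.151) and -0.50 (SE 0.112), both with a quasi-likelihood adjusted p of 0.474. The 6 of 14 mast cell, basophil and eosinophil markers summed to 1365 and 556 CPM against 1975 and 2580 CPM, most of it from Prg2, an eosinophil granule gene. Of these lists 0 genes were called by the quasi-likelihood test. Ccr2 was the 1 marker of these 3 lists that DESeq2 called, as the likelihood ratio test did. Sex-linked transcripts set wild type replicate 1 apart from the other 3 libraries, and their part in the granule gene values was not tested.

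**Figure D5:**
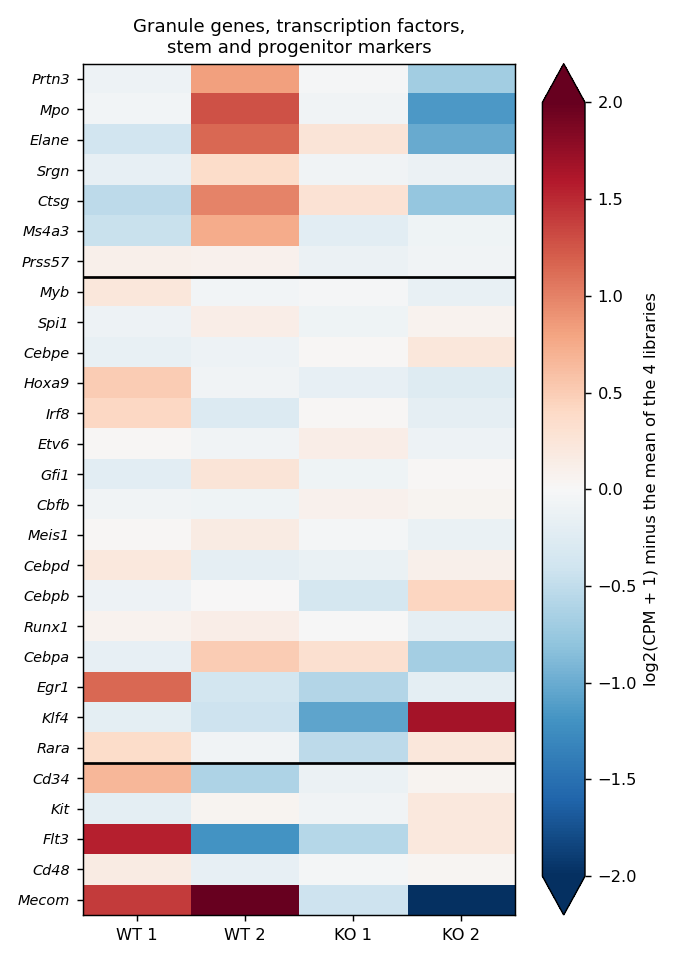
Log2(CPM + 1) of each gene minus its mean over the 4 libraries (colour, red above and blue below the mean, cut at 2) in the wild type (WT) and knockout (KO) libraries. Black lines separate the primary granule genes, the transcription factors and the stem and progenitor markers, for genes with a mean of 10 CPM or more. Elane, Mpo, Prtn3 and Ctsg run from high in WT 2 to low in KO 2, Cebpa and Mecom follow them in being highest in WT 2 and lowest in KO 2, and Flt3 and Cd34 are highest in WT 1.

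The 5 other genes nearest to the mean profile of Mpo, Elane, Prtn3, Ctsg and Prss57 over the 4 libraries were Far2, Btnl9, Mctp1, Gm34084 and Padi4. Likeness is the Euclidean distance between log2 CPM values centred on each gene's mean, and lay between 0.329 and 0.408. The search covered the 6290 genes whose mean log2 CPM reached 5, with the genes that form the profile left out. All 5 were chosen on that profile and have the library order of Elane. Padi4, which encodes the enzyme that citrullinates histones in neutrophils, was at 123 and 237 CPM in the wild type and 142 and 58.8 CPM in the knockout. Far2, a fatty acyl reductase gene, was at 28.4 and 48.7 CPM against 34.9 and 21.9 CPM. With 4 libraries a like profile is a description and carries no test.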

How the data were processed

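RNA-seq counts per gene of 4 libraries were analysed, 2 of each genotype. The authors deposited 1 table of raw counts. It also holds, per the file headers, log2 CPM and log2 RPKM values, a log2 fold change, a p-value, an adjusted p-value and a gene length in bp. STAR, Bowtie2, featureCounts and mm10 were used, per the submitters' processing notes, with roles, versions and strand setting not given in the sources used here. Every listed gene has a CPM above 0.5 in at least 2 libraries, so genes below that level are not analysed here. Symbols of 18 genes that had turned into dates were restored from their IDs, and coordinates of all 8 genes equal those of GENCODE M21.

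The test across genes was that of edgeR 4.0.16 in R 4.3.3 (robust quasi-likelihood test, TMM, filterByExpr, which kept all 13614 genes). Tests were two-sided with Benjamini-Hochberg adjustment, genotype was the single term, and an SE is the coefficient divided by the root of F. CPM and RPKM were scaled by TMM factors, and log2 CPM uses a prior count of 2. Python 3.11.15 and scipy 1.17.1 gave the exact intervals. The fit was tested on simulated counts. Libraries of one genotype differed beyond sampling noise (chi-square 33.8 and 18.7 per gene), so each was treated as 1 sample. This does not show whether they came from separate embryos or cultures.

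Sample descriptions carry the column names, and replicate numbers come from the titles. The genes and the 13 other lists were chosen with earlier results of these data known. Named genes are the 8 genes, the 4 most abundant members of each other list after any called ones, genes within 100 kb of Elane, and the 5 nearest profiles. For neighbours and cell type lists fewer were named, a reduction made after the values were seen. Of the genes this rule names, 1 is not reported here. Genes named as called by DESeq2 or by their library order were likewise chosen after their values were seen. Alternatives were DESeq2 1.42.0, edgeR's likelihood ratio test, limma-voom (limma 3.58.1), other scalings and filters, offsets for a length trend, a replicate block and leaving out each library.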

Additional observations from a re-analysis of the deposited data

How the results depend on the processing

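Over the 16 alternatives, 0 of the 8 genes were called in any, with adjusted p-values from 0.145 to 1.00. Mpo, Prtn3 and Prss57 had a negative fold change in all 16. Without wild type replicate 2 the log2 fold changes of Elane, Ctsg, Ms4a3 and Srgn were 0.13, 0.37, 0.30 and 0.070, so these directions rest on that library, and that of Mpo was -0.45. Without knockout replicate 2 that of Calr3 was 0.0022. Leaving out each library gave a median over the 8 genes between -1.02 and -0.07, and lowest values of -1.58 for Elane, -1.19 for Ctsg, -0.89 for Ms4a3, -0.47 for Srgn and -0.42 for Calr3. It gave -1.91 to -0.45 for Mpo, -1.15 to -0.23 for Prtn3 and -0.21 to -0.17 for Prss57. With the other 12 alternatives the median lay between -0.53 and -0.27, and all 8 fold changes stayed below 0. Genes called over the whole table were 46 higher and 46 lower with DESeq2, and 25 higher and 40 lower with the likelihood ratio test. Leaving out 1 library gave 0 to 4 higher and 0 to 4 lower; in these fits the lone library of a genotype is assumed to vary like the others. The cause was not tested. The samples share only a replicate number. With the replicate block the median was -0.38, with 0 genes called higher and 1 lower, and with the length trend removed as well the median was -0.27. The deviations of same-numbered libraries from their genotype means had a weak negative correlation (-0.14 over 9397 genes). A block with crossed numbers, chosen after seeing the data, was added and called 0 higher and 1 lower. Depth limits Calr3 alone among the 8 genes.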
